A study of Mus musculus with 24 samples.

Results

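The genes Olig2, Gcg, Dpysl5, Ret, Actg2, Dnase1l3, Bex2 and Cap2 are known mainly from tissues other than T cells, and all of them gave reads in sorted CD4 T cells of lupus-prone mice. They were 8 of the 39056 genes in the count table, and they were chosen by measured values, because their levels in follicular T cells shifted strongly with treatment or differed strongly between subsets. The values that chose them are therefore given as a description and not as a finding. Tests are kept to the conventional and regulatory cells, whose treatment response the choice did not use. Their libraries were still the counterparts of follicular cells in the subset differences that entered the choice, so these tests are not wholly free of it. All 8 were among the 18789 genes that passed a filter on low counts. Positions are those of mm10 with GENCODE M21, in which all 8 are protein-coding.

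RNA was sequenced from 24 libraries in 8 groups of 3, all from NZBWF1/j females, whose cross of parental strains makes them prone to lupus-like disease. Treated mice had been injected into the peritoneum with recombinant mouse OX40L and mouse JAG1, each at 2 mg/kg, in 3 weekly doses starting at 23 weeks of age. Control mice were of the same age and sex and received PBS. At week 26 follicular helper cells (TFH, CD4+ CXCR5+ PD1-high with no or low GITR), follicular regulatory cells (TFR, CD4+ CXCR5+ PD1-high GITR-high), conventional cells (Tconv, CD4+ CXCR5- GITR-) and regulatory cells (Treg, CD4+ CXCR5- GITR+) were sorted from mice of both kinds. Both proteins were always given together, so an effect of OX40L, which binds the costimulatory receptor OX40, cannot be told apart from one of JAG1, a ligand of Notch receptors. The gates rest on surface proteins and not on Foxp3. Whether the 3 libraries of a group stem from different animals is not said in the labels, and the p-values therefore cover only the spread between libraries, which may be technical.

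Olig2 encodes a basic helix-loop-helix transcription factor that directs the oligodendrocyte and motor neuron lineages. Gcg encodes proglucagon, which islet alpha cells cut into glucagon and intestinal L cells into GLP-1. Ret encodes the receptor tyrosine kinase for the GDNF family, needed for the enteric nervous system and for kidney branching. Dpysl5, also called CRMP5, encodes a cytosolic protein of developing neurons that acts downstream of semaphorins. Actg2 encodes the gamma actin of enteric smooth muscle, and Cap2 a cyclase-associated protein that helps to turn over actin filaments, best known in heart and skeletal muscle. Dnase1l3 encodes a secreted nuclease that digests DNA in chromatin and microparticles, made in large part by dendritic cells and macrophages, and its loss in humans causes a familial form of lupus. Bex2 encodes a small protein of a brain-expressed X-linked family.

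Promoter sequence is shown for Gcg and Dpysl5, the pair of members whose levels were most alike over the libraries, and for Olig2, which went the other way. The sequences come from RefSeq (GRCm38.p6), whose table matched 5 of the 8 genes. Each line holds the 250 bases before the RefSeq start, read 5′ to 3′ on the strand of the gene. Capitals mark a match to TGGGAA, the core letters bound by RBPJ, the DNA-binding partner of Notch, on either strand.
Gcg, chr2:62483654-62483903, minus strand: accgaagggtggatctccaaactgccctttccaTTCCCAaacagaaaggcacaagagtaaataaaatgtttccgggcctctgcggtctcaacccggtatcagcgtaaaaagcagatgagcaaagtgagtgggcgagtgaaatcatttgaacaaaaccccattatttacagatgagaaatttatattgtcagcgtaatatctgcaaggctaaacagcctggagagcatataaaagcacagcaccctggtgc
Dpysl5, chr5:30711314-30711563, plus strand: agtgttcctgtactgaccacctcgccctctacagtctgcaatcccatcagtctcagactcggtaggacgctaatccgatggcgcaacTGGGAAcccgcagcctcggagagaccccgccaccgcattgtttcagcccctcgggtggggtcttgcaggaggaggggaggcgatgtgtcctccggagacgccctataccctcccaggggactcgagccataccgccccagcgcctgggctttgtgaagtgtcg
Olig2, chr16:91225300-91225549, plus strand: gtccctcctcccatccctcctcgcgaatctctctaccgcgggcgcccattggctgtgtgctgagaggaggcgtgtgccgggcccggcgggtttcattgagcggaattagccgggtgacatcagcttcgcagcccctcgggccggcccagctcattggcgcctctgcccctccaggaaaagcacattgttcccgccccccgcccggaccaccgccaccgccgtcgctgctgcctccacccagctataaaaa
The match in Gcg lay on the opposite strand and began 217 bases before the start, and that in Dpysl5 began 163 bases before the start. No match was found in these letters for Olig2, Bex2 or Cap2. Of 32851 mouse promoter windows of the same length, 21.6% held the letters. The AP-1 letters TGANTCA and an NF-kB consensus, each searched on both strands, were in none of the 5 windows, against 6.75% and 3.9% of all windows. The Olig2 window was rich in G and C (66.8%), that of Gcg less so (44.8%). These matches are a description of sequence and not evidence of binding.

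The groups differed in ways that bear on every value below. Treated libraries held 31.8 to 53.8 M counts (M, mega), against 2.54 to 33.2 M in control libraries, and the control TFH and TFR libraries were the smallest (2.54 to 15.2 M). Mitochondrially encoded genes took 1.85 to 3.17% of counts in treated libraries, against 9.5 to 16.9% in control libraries, without overlap, so handling and treatment cannot be told apart. Kidney transcripts were present in 4 libraries, in which podocyte markers summed to 1676 CPM (treated TFH 3), 655 CPM (treated TFR 1), 1419 CPM (control Tconv 1) and 1430 CPM (control Tconv 2). Treated Treg 3, with 185 CPM, also stood above the other 2 of its group. Counts of the chosen genes and some single results are given with and without the 4 kidney libraries. Gene lists were counted with all libraries. CPM are counts scaled to library size. A group without a read was set to 3 reads in total when a fold was taken, which makes that fold a lower bound. Floors set by these 3 reads cover counting error only. In bulk RNA, fewer cells that carry a transcript and less of it per cell cannot be told apart.

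Gcg (chr2:62474530-62483650, minus strand), the hormone precursor, was read in all 12 treated libraries and hardly in the control libraries. In TFR cells it stood at 42.8, 45.8 and 49.5 CPM (1953, 2397 and 1797 reads) in treated mice, against 1.45, 0 and 0 CPM in control mice, where all 15 reads fell in library 1. TFH cells had 23.9, 20.9 and 24.7 CPM in treated mice, against no read in any of the 3 control libraries. The treated follicular libraries were thus all above the control ones, at least 178-fold on average in TFH cells and 95.0-fold in TFR cells. Treg cells showed the same direction at a lower level, with 4.73, 5.91 and 5.12 CPM in treated mice, against 0.330, 0.399 and 0.331 CPM in control mice. This 14.9-fold difference passed the test (log2 fold change 3.88 ± 0.92 SE, edgeR quasi-likelihood test with Benjamini-Hochberg adjustment, adjusted p = 0.0097). It missed the threshold without control Treg 1 or without control Treg 3 (adjusted p = 0.055 in edgeR for each). In Tconv cells Gcg was at 1.01, 0.771 and 0.613 CPM in treated mice and at 0.278, 0.214 and 0 CPM in control mice, a difference that did not pass (2.28 ± 0.92, edgeR adjusted p = 0.13). Over the 8 groups the order ran treated TFR, treated TFH, treated Treg, treated Tconv, control TFR, control Treg, control Tconv and control TFH, and the 4 lowest groups differed little, with overlap between treated Tconv and control TFR, control TFR and control Treg, and control Tconv and control TFH libraries.

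Markers of islet and enteroendocrine cells were measured beside Gcg. Of 20 islet and enteroendocrine markers other than Gcg, 9 were at 0 in treated TFR libraries, among them Ins1, Ins2, Ppy and Iapp, against 17 at 0 in control TFR libraries. In TFH libraries 5 were at 0 in treated mice and 14 in control mice, so that 11 of the 20 had reads in treated TFR and 15 in treated TFH libraries. Their summed level was 9.26 to 29.1 CPM in treated TFR libraries, against 5.56 to 29.4 CPM in control TFR libraries, and 21.1 to 73.5 CPM in treated TFH libraries, against 26.3 to 29.0 CPM in control TFH libraries. The highest treated sums, 29.1 and 73.5 CPM, lay in the kidney libraries treated TFR 1 and treated TFH 3. Over all genes 22.4% were called in TFH, 22% in TFR, 8.73% in Treg and 9.94% in Tconv cells, the shares beside which the counts of related genes here stand. None of the 7 tested islet markers changed with treatment in TFH, TFR or Treg cells at the edgeR threshold. In Tconv cells 1 fell and 1 rose, the one that rose being Scg5, a chaperone of prohormone convertase 2 (50.7 ± 2.17 CPM in treated and 14.6 ± 3.8 CPM in control libraries, SD, n = 3 each, edgeR adjusted p = 0.043). Of 11 tested genes of proglucagon processing and reception, 2 rose in TFH cells, none in TFR cells and 1 in Treg cells, with 1 higher and 1 lower in Tconv cells. One of them was Dpp4, the peptidase that inactivates GLP-1 and the left neighbour of Gcg, 62299 bases away on chromosome 2. Dpp4 rose in TFH cells (131 ± 39.3 CPM in treated and 25.4 ± 15.4 CPM in control libraries, log2 fold change 2.29, edgeR adjusted p = 0.00016) and in Treg cells (146 ± 6.45 CPM in treated and 53.9 ± 4.16 CPM in control libraries, 1.43, edgeR adjusted p = 0.012). In TFR cells, where Gcg was highest, Dpp4 did not pass (85.1 ± 19.9 CPM in treated and 55.8 ± 17.7 CPM in control libraries, edgeR adjusted p = 0.23). The right neighbour Fap, 17293 bases away, did not pass in any of the 4 subsets.

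Ret (chr6:118151745-118197718, minus strand), the GDNF-family receptor, had the most reads of the transcripts that had few or none in control TFH cells. In TFH cells it stood at 66.5, 83.6 and 55.6 CPM in treated mice, against 1.39, 0 and 14.3 CPM in control mice. Control TFH 3 gave 210 of the 218 control reads, and it was also the control TFH library with the highest sum of proximal tubule markers (23.1 CPM, against 0 and 0.773 CPM in the other two); the part of these in the Ret value was not tested. Treated TFH 3, the library with the most podocyte RNA, had the lowest Ret level of its group. TFR cells had 22.6, 28.2 and 28.7 CPM in treated mice, against no read in 3 control libraries, at least 219-fold. Treg cells had 9.73, 10.6 and 9.15 CPM in treated mice, against 3.12, 1.27 and 0.0827 CPM in control mice, and Tconv cells had 8.26, 7.18 and 6.32 CPM in treated mice, against 1.11, 1.78 and 0.317 CPM in control mice. The treated libraries were above the control ones in all 4 subsets, as they also were for Gcg and Dpysl5 and for 767 of all tested genes (4.08%). Neither tested difference passed. The log2 fold change was 2.71 ± 0.97 in Treg cells (edgeR adjusted p = 0.1) and 2.76 ± 0.98 in Tconv cells (edgeR adjusted p = 0.085). Both passed when only the compared libraries were fitted (edgeR adjusted p = 0.0084 in Treg and 0.012 in Tconv cells). In Tconv cells the kidney libraries, control Tconv 1 and 2, gave 28 and 50 of the 88 control Ret reads. Control Tconv 3 gave 10. The part of kidney RNA in these values was not tested.

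The other parts of the GDNF receptor system were detected more widely in treated than in the shallower control follicular libraries. RET needs a GFRA co-receptor to bind its ligands, and of 22 ligands, co-receptors and docking proteins, 10 were at 0 in control TFH cells and 13 in control TFR cells, Gdnf, Nrtn, Artn, Pspn, Gfra1 and Gfra3 in both. In treated libraries none was at 0 in TFH and 2, Gfral and Dok5, were at 0 in TFR cells. The summed level, 861 to 1032 CPM in treated and 609 to 730 CPM in control TFH libraries, did not overlap, with the treated libraries higher. In TFR cells the sums overlapped, at 671 to 747 CPM in treated and 660 to 808 CPM in control libraries. Treated sums were higher without overlap in Treg (786 to 823 against 677 to 734 CPM) and Tconv cells (682 to 696 against 495 to 530 CPM). Much of the treated TFH sum came from Sorl1 and Cbl, given below. Of 16 tested members, 2 rose in TFH cells, 2 rose and 1 fell in TFR cells, 1 rose and 1 fell in Treg cells and 2 rose in Tconv cells. Sorl1, a sorting receptor, rose in TFH cells (335 CPM in treated and 184 CPM in control libraries, 0.87, edgeR adjusted p = 0.00049), and so did Cbl, a ubiquitin ligase that limits receptor kinases (286 CPM in treated and 178 CPM in control libraries, 0.67, edgeR adjusted p = 0.0057). The neighbours Csgalnact2 and Bms1 on chromosome 6 did not pass in any subset.

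Dpysl5 (chr5:30711564-30799375, plus strand) was the member with the fewest control reads, 18 in all. TFH cells of treated mice had 30.0, 27.1 and 28.2 CPM (1042, 844 and 977 reads), against no read in control TFH cells, at least 218-fold. TFR cells had 4.78, 4.91 and 6.14 CPM in treated mice, against no read in control mice, at least 43.6-fold. Within treated mice the gene was thus lower in TFR than in TFH cells, at 5.27 ± 0.750 CPM in TFR and 28.4 ± 1.48 CPM in TFH libraries (SD, n = 3 each), which is the reverse of the order of Gcg, at 46.0 ± 3.33 CPM in TFR and 23.2 ± 1.98 CPM in TFH libraries. Treg cells had 67, 70 and 43 reads (1.28, 1.24 and 1.04 CPM) in treated mice, against no read in control mice, at least 31.2-fold, and the difference passed (edgeR adjusted p = 8.6e-06). Tconv cells had 0.529, 0.504 and 0.473 CPM in treated mice, against 0.278, 0.143 and 0.222 CPM in control mice, which did not pass (1.22 ± 0.53, edgeR adjusted p = 0.16).

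Dpysl5 was the single member whose treatment response differed between Treg and Tconv cells when that difference was itself tested. The response was larger in Treg cells by 6.92 ± 1.01 on the log2 scale (edgeR adjusted p = 0.0012), a size that depends on the prior count because control Treg libraries had no read. Differences between responses were tested in the main fit only, with no alternative setting. Between control Treg and control Tconv cells the gene was at 0 in Treg and at 4 to 7 reads a library in Tconv libraries, at least 5.64-fold lower (edgeR adjusted p = 0.00034). With all libraries thinned to equal depth, 1 read was left in the 6 libraries and this last call was lost (edgeR adjusted p = 0.54). Neither of these control groups alone would have passed the low-count filter, which the gene met through its reads in treated groups. Nothing is read from that call.

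Of 17 neuronal markers, 1, Th, was at 0 in treated TFH libraries, against 15 in control TFH libraries, and 6 were at 0 in treated TFR against 11 in control TFR libraries. Their sums were 31.2 to 72.7 CPM in treated and 16.6 to 34.2 CPM in control TFH libraries, but 22.4 to 44.2 CPM in treated and 60.6 to 72.9 CPM in control TFR libraries. The highest treated sums lay in the kidney libraries, treated TFH 3 (72.7 CPM, the others at 31.2 and 31.7 CPM) and treated TFR 1 (44.2 CPM). In control Tconv cells the kidney libraries had 52.5 and 51.9 CPM, against 3.14 CPM in control Tconv 3. In TFH cells 1 of the 8 tested markers rose, in Tconv cells 1 fell, and none passed in TFR or Treg cells. Of the collapsin response mediator family and its partners, 4 of 13 rose in TFH cells, 3 in TFR and 2 in Treg cells, and 2 rose and 1 fell in Tconv cells. Dpysl2, the family member best known in T cells, rose in TFH cells (198 CPM in treated and 71.9 CPM in control libraries, 1.44, edgeR adjusted p = 1e-05) and in TFR cells (182 CPM in treated and 94.3 CPM in control libraries, 0.95, edgeR adjusted p = 0.00077). Sema4d, a semaphorin of T cells, rose in all 4 subsets, from a log2 fold change of 1.09 in Tconv to 2.03 in TFH cells. The neighbour Mapre3 did not pass in any subset, and Cenpa passed in TFH cells in the opposite direction to Dpysl5 (-0.82, edgeR adjusted p = 0.047).

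**Figure D1:**
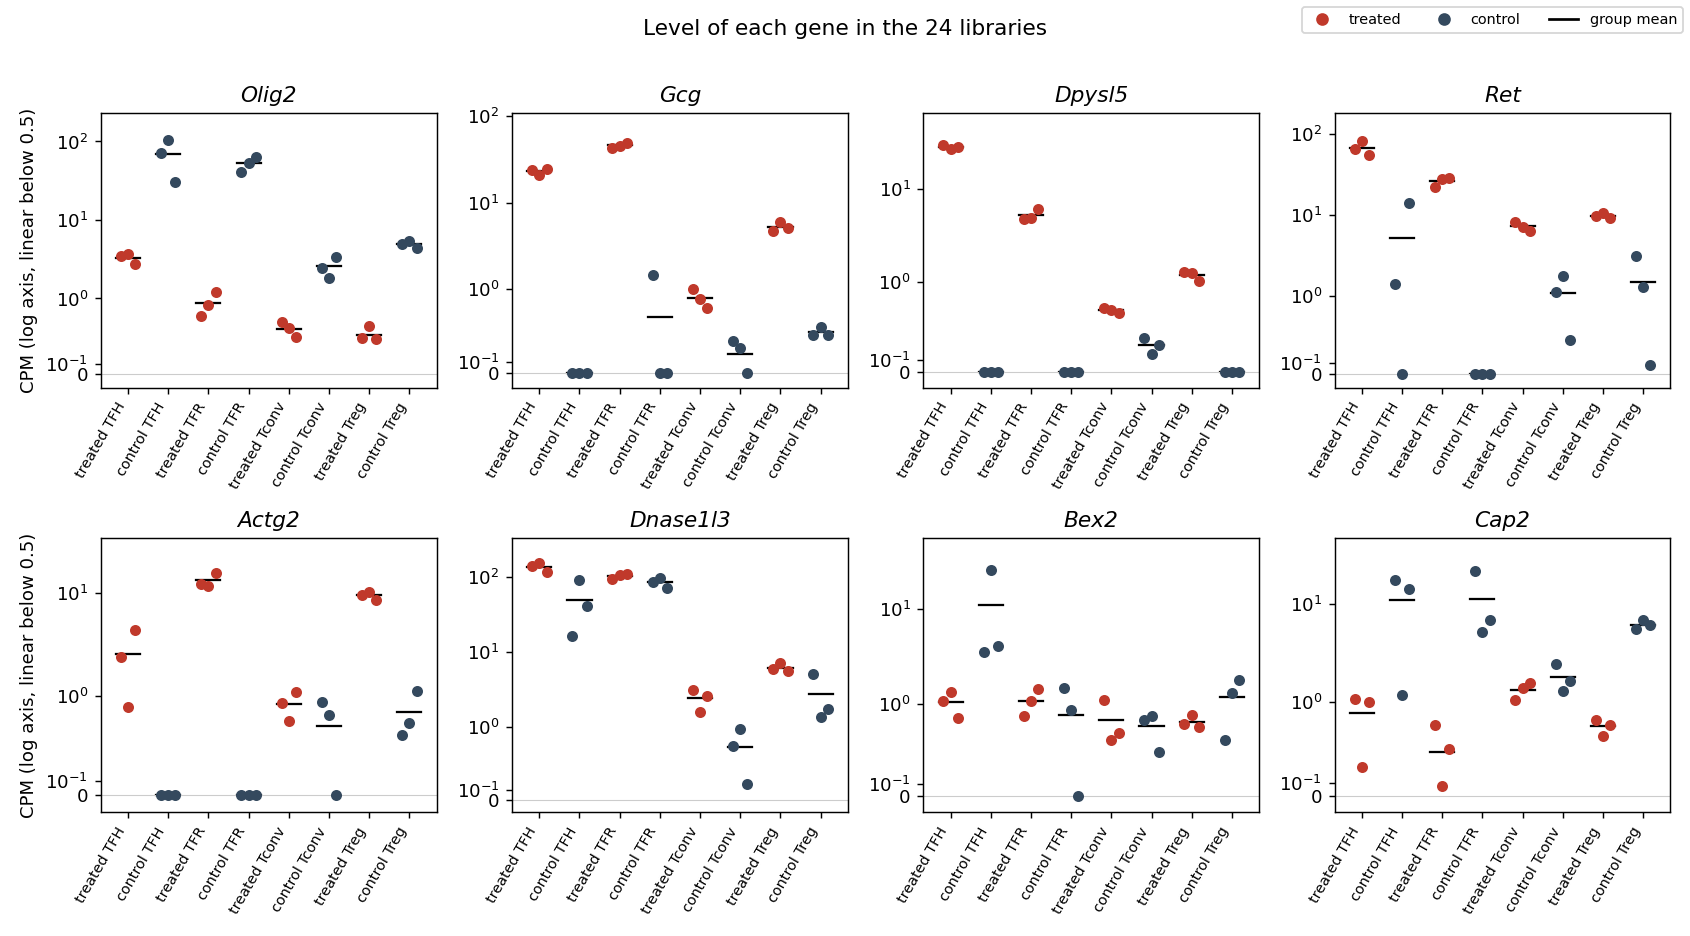
Level of each gene in CPM (log axis, linear below 0.5) in every library, with 3 points a group, treated groups in red left of their control groups in dark blue, and a bar at the group mean. Gcg, Dpysl5, Ret and Actg2 sit higher in treated than in control follicular libraries, of which Ret in control TFH library 3 is the highest at 14.3 CPM, Olig2 and Cap2 sit the other way, and Dnase1l3 is high in both.

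Olig2 (chr16:91225457-91228677, plus strand), the transcription factor, went the other way and did so in every subset. TFH cells had 3.46, 3.72 and 2.74 CPM in treated mice, against 70.9, 105 and 30.6 CPM in control mice, a 20.8-fold lower mean. TFR cells had 0.592, 0.821 and 1.21 CPM in treated mice, against 40.9, 53.6 and 63.9 CPM in control mice, a 60.3-fold lower mean. These counts are not small: the smallest library, control TFH 2, gave 271 Olig2 reads among its 2.54 M counts, whereas treated TFR 2 gave 43 reads among 50.9 M counts. Treg cells had 0.343, 0.462 and 0.338 CPM in treated mice, against 4.99, 5.45 and 4.38 CPM in control mice, and the gene fell by 3.68 ± 0.42 on the log2 scale (edgeR adjusted p = 2.7e-06). Tconv cells had 0.504, 0.445 and 0.362 CPM in treated mice, against 2.46, 1.82 and 3.42 CPM in control mice, and the gene fell by 2.54 ± 0.41 (edgeR adjusted p = 0.00016). Both calls held in all leave-one-out fits, and that in Tconv cells was lost only when libraries were thinned to equal depth, which left 2 reads in treated and 11 in control Tconv libraries (edgeR adjusted p = 0.18). The response did not differ between Treg and Tconv cells past the threshold (difference -1.13 ± 0.56, edgeR adjusted p = 0.3). Treated libraries were below control libraries without overlap in all 4 subsets, as they were for 221 of the 18789 genes (1.18%). Control Treg and control Tconv cells did not differ past the threshold either (4.94 ± 0.534 CPM in Treg and 2.57 ± 0.806 CPM in Tconv libraries, SD, n = 3 each, edgeR adjusted p = 0.13).

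Genes of the oligodendrocyte lineage were measured beside Olig2. Its chromosome neighbour and usual partner Olig1 was at 0 in both follicular control groups, where Olig2 was highest. Of 17 other oligodendrocyte genes, 10 were at 0 in control TFH, against 4 in treated TFH libraries, and 13 in control TFR, against 4 in treated TFR libraries, Sox10, Nkx2-2, Pdgfra and Mog being at 0 in both control groups. The summed level, 270 to 286 CPM in treated and 119 to 203 CPM in control TFH libraries, was higher in treated libraries, the reverse of Olig2. In TFR cells the sums overlapped, at 180 to 214 CPM in treated and 106 to 182 CPM in control libraries. They overlapped in Treg cells too (232 to 269 and 220 to 233 CPM), but not in Tconv cells (302 to 310 and 211 to 227 CPM). Mbp, a myelin protein gene, was the main part of the TFH sum. It rose in TFH cells (183 CPM in treated and 102 CPM in control libraries, 0.83, edgeR adjusted p = 0.00032). Of the 10 tested genes 1 rose in TFH cells, 3 in TFR cells, 1 in Tconv cells and none in Treg cells, and none fell in any subset. Among 12 tested helix-loop-helix factors, 4 rose and 1 fell in TFH cells, 5 rose and 1 fell in TFR cells, 2 rose and 1 fell in Treg cells and 3 rose in Tconv cells. Bhlhe40, an activation-induced repressor in T cells, rose in all 4 subsets, most in Tconv cells (201 CPM in treated and 47.0 CPM in control libraries, 2.10, edgeR adjusted p = 1.4e-10). The nearest genes tested on both sides of Olig2, Paxbp1 (180914 bases away) and Ifnar2, a chain of the type I interferon receptor (144106 bases away), were lower in treated TFH and TFR cells by far less, between -0.69 and -0.57 on the log2 scale (edgeR adjusted p = 0.00011 to 0.011), and did not pass in Treg or Tconv cells.

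Actg2 (chr6:83512905-83536265, minus strand), the enteric smooth muscle actin, was read in treated regulatory cells of both kinds. TFR cells had 12.3, 11.8 and 15.6 CPM in treated mice, against no read in control mice, at least 109-fold. Treg cells came close to that level, with 9.60, 10.2 and 8.50 CPM in treated mice, against 0.440, 0.545 and 1.12 CPM in control mice. The difference in Treg cells passed (13.5-fold, log2 fold change 3.75 ± 1.04, edgeR adjusted p = 0.031). The call was lost when any 1 of the 6 libraries was left out (edgeR adjusted p between 0.064 and 0.14, log2 fold change between 3.51 and 4.26). TFH cells had 2.39, 0.770 and 4.38 CPM in treated mice, against no read in control mice, at least 19.3-fold. The highest of these, treated TFH 3, is the library with kidney transcripts, and the next, at 83 reads, is not. Tconv cells had 0.857, 0.564 and 1.09 CPM in treated mice, against 0.875, 0.642 and 0 CPM in control mice, with overlap (0.73 ± 0.95, edgeR adjusted p = 0.76). The 2 control Tconv libraries with reads are those with kidney transcripts, whose part in them was not tested. Within treated mice Actg2 was higher in Treg than in Tconv cells (9.44 ± 0.869 CPM in Treg and 0.835 ± 0.262 CPM in Tconv libraries, SD, n = 3 each, 3.49 ± 1.02, edgeR adjusted p = 0.032), again a call that no leave-one-out fit kept (edgeR adjusted p between 0.063 and 0.15).

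More of the other smooth muscle genes had reads in treated than in the shallower control follicular groups. Of 14 such markers 1 was at 0 in treated TFR, against 8 in control TFR libraries, and 1 in treated TFH, against 9 in control TFH libraries. Their sum was 11.8 to 78.6 CPM in treated and 9.88 to 17.2 CPM in control TFR libraries, and 91.1 to 261 CPM in treated and 17.6 to 36.2 CPM in control TFH libraries. It was 10.9 to 31.5 CPM in treated and 7.59 to 8.28 CPM in control Treg libraries. The sums thus did not overlap in TFH and Treg cells, with the treated libraries higher. The highest Treg sum, 31.5 CPM, lay in treated Treg 3, whose podocyte markers also stood above its group. In TFR cells the sums overlapped. The highest sum of each treated follicular group, 261 CPM in treated TFH 3 and 78.6 CPM in treated TFR 1, lay in its kidney library. Of the 10 tested, 2 rose in TFH cells, 1 in TFR cells and none in Treg or Tconv cells. Smtn, a smooth muscle cytoskeletal protein, rose in TFH cells (95.4 CPM in treated and 22.1 CPM in control libraries, 2.11, edgeR adjusted p = 0.034, and 0.0039 without the kidney libraries). Smtn alone made up 84.4 of 91.1 CPM of the sum in treated TFH 1 and 98.6 of 105 CPM in treated TFH 2. It made up 9.22 of 11.6 CPM in treated Treg 1 and 8.51 of 10.9 CPM in treated Treg 2. In treated TFH 3 and treated Treg 3 it made up 103 of 261 CPM and 9.53 of 31.5 CPM. Myh11, the smooth muscle myosin heavy chain, was at 0.346, 0.546 and 17.6 CPM in treated TFH libraries and at 8.35, 0.573 and 0.193 CPM in treated TFR libraries, against 0 in every control TFH and TFR library. Its calls (edgeR adjusted p = 0.035 in TFH and 0.049 in TFR cells) were lost without the kidney libraries (0.15 in TFH and 0.14 in TFR cells), a comparison added for both genes after seeing the data. The cytoplasmic actins rose: Actb in all 4 subsets, by 1.44 in Treg to 1.93 in TFR cells on the log2 scale, and Actg1 in TFH and TFR cells. Of the 5 other actins, 3 rose in TFH, 2 in TFR, 1 in Treg and 1 in Tconv cells. The neighbours Dguok and Stambp, 5936 and 6946 bases away on chromosome 6, did not pass in any subset. Of 11 tested striated muscle genes, 2 rose in TFH, 2 in TFR, 1 in Treg and 1 in Tconv cells; nearly all of the sum was Ttn (titin), at 4810 CPM in treated and 534 CPM in control Treg cells (3.17, edgeR adjusted p = 4.8e-07). Acta1, Mb, Myh6, Myh7, Myl2 and Tnnt2 were at 0 in both follicular control groups.

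Cap2 (chr13:46501848-46650281, plus strand), the actin turnover factor, was lower in treated cells except in Tconv cells. TFH cells had 1.07, 0.225 and 0.981 CPM in treated mice, against 17.7, 1.16 and 14.4 CPM in control mice. The groups did not overlap, but the lowest control value rests on 3 reads in the smallest library. TFR cells had 0.570, 0.0764 and 0.358 CPM in treated mice, against 21.8, 5.12 and 6.82 CPM in control mice, a 33.6-fold lower mean in which control TFR 1 weighed most. Treg cells had 0.649, 0.462 and 0.579 CPM in treated mice, against 5.54, 6.79 and 6.16 CPM in control mice, the tightest of the 3, and Cap2 fell by 3.44 ± 0.88 (edgeR adjusted p = 0.015). That call was lost without any 1 of the treated Treg libraries (edgeR adjusted p between 0.063 and 0.083), at a log2 fold change of -3.55 to -3.31, and at equal depth (edgeR adjusted p = 0.071). Tconv cells had 1.03, 1.39 and 1.56 CPM in treated mice, against 2.42, 1.28 and 1.62 CPM in control mice, with overlap (-0.42 ± 0.81, edgeR adjusted p = 0.86). The difference between the Treg and Tconv responses was -3.03 ± 1.16, which did not pass after adjustment (edgeR adjusted p = 0.15). Among genes that work with Cap2 on actin, 9 of 16 rose and 2 fell in TFH cells, 8 rose and 2 fell in TFR cells, 7 rose and 1 fell in Treg cells and 8 rose and 1 fell in Tconv cells. Their median log2 fold change was 0.55 in TFH cells, beside 0.42 over all genes, and 0.43 in Treg cells, beside 0.09. Pfn1 (profilin), Cfl1 (cofilin) and Coro1a (coronin) rose in all 4 subsets, and Ssh2, a phosphatase that activates cofilin, fell in all 4. The right neighbour Fam8a1, 19241 bases away, was lower in treated TFH (-0.67, edgeR adjusted p = 0.014) and TFR cells (-1.07, edgeR adjusted p = 0.00028) and did not pass in Treg or Tconv cells, whereas the left neighbour Rbm24 did not pass in any.

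Dnase1l3 (chr14:7964533-7994573, minus strand), the secreted nuclease, differed from the other members in being high in follicular cells of both kinds of mice. TFR cells had 93.1, 105 and 109.6 CPM in treated mice, against 85.6, 95.5 and 71.8 CPM in control mice, with overlap and a mean 1.22-fold higher in treated mice. TFH cells had 140.1, 150.5 and 117 CPM in treated mice, against 16.3, 89.3 and 40.5 CPM in control mice. The treated TFH libraries were all higher, 2.79-fold on average, but the control ones spread 5.46-fold between lowest and highest. Against their non-follicular counterparts the follicular cells were higher in treated and in control mice: 103 ± 8.60 CPM in TFR and 6.16 ± 0.769 CPM in Treg libraries of treated mice, and 84.3 ± 11.9 CPM in TFR and 2.74 ± 2.05 CPM in Treg libraries of control mice (SD, n = 3 each). TFH cells likewise held 136 ± 16.99 CPM, against 2.43 ± 0.770 CPM in Tconv cells, in treated mice, and 48.7 ± 37.1 CPM, against 0.548 ± 0.385 CPM in Tconv cells, in control mice. In Tconv cells Dnase1l3 stood at 3.12, 1.60 and 2.56 CPM in treated mice, against 0.556, 0.928 and 0.159 CPM in control mice, and rose (2.17 ± 0.58, edgeR adjusted p = 0.017). That call held in 12 of 17 alternatives. Among those that lost it were the fits without treated Tconv 1 (edgeR adjusted p = 0.073), control Tconv 1 (0.066) or control Tconv 3 (0.071), and that at equal depth (0.34). Without the kidney libraries control Tconv 3, with 5 reads, is the only control library left, and the log2 fold change is 3.91 (edgeR adjusted p = 0.041). In Treg cells it had 5.93, 7.01 and 5.53 CPM in treated mice, against 5.10, 1.38 and 1.74 CPM in control mice, without overlap but not past the threshold (1.17 ± 0.49, edgeR adjusted p = 0.18). Control Treg cells were higher than control Tconv cells (2.34 ± 0.58, edgeR adjusted p = 0.011), a call lost without control Treg 1 (edgeR adjusted p = 0.14, log2 fold change 1.52) or control Tconv 3 (0.056), with only the compared libraries in the fit (0.091) and at equal depth (0.19). Without the kidney libraries it was 4.08 (edgeR adjusted p = 0.024).

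Markers of the cells usually credited with Dnase1l3 were measured beside it. Of 20 dendritic cell and macrophage markers, 3 were at 0 in treated TFH (Clec9a, Cd209a and Timd4) and 13 in control TFH libraries, and 4 were at 0 in treated TFR and 11 in control TFR libraries, Itgax, Flt3, Adgre1, C1qa and C1qb being at 0 in both control groups. Their sum, 116 to 134 CPM in treated and 48.7 to 66.3 CPM in control TFR libraries, lay above Dnase1l3 in treated TFR libraries (93.1 to 109.6 CPM) and below it in control TFR libraries (71.8 to 95.5 CPM). In treated Treg libraries (89.0 to 93.1 CPM) and control Tconv libraries (32.6 to 108 CPM) the sum was far above Dnase1l3. Among control Tconv libraries the kidney libraries had the highest sums, 108 and 104 CPM. The part of these markers in the Dnase1l3 values was not tested. Of the 13 tested, 2 rose and 1 fell in TFH cells, 1 rose in TFR cells, 2 rose in Treg cells and 2 fell in Tconv cells. Of 13 tested endothelial markers 2 rose in TFH, 1 in TFR and 1 in Treg cells, and 1 rose and 1 fell in Tconv cells; their sums, 133 to 923 CPM in treated TFH libraries, against 160 to 164 CPM in control TFH libraries, reached their highest in the library with the most podocyte RNA. Among 15 tested nucleases and DNA sensors linked to lupus, 2 rose and 1 fell in TFH cells, 4 rose and 1 fell in TFR cells, 2 rose in Treg cells and 2 rose and 1 fell in Tconv cells. Zbp1, a nucleic acid sensor, rose in all 4, and Samhd1, which degrades deoxynucleotides, fell in TFH, TFR and Tconv cells. Dnase1 was at 0 in both follicular control groups and Dnase2a did not pass in any subset. The neighbour Abhd6 on chromosome 14 did not pass in any subset either.

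Bex2 (chrX:136066564-136068236, minus strand) was highest in control TFH cells. TFH cells had 1.07, 1.35 and 0.721 CPM in treated mice, against 3.48, 25.1 and 4.02 CPM in control mice, and the value of 25.1 CPM came from 65 reads in the smallest library of the study. In the 7 other groups every library stood between 0 and 1.78 CPM, below all 3 control TFH libraries. The log2 fold change for treatment in TFH cells, -3.36, stayed between -3.78 and -1.84 in the 16 alternatives. TFR cells had 0.745, 1.07 and 1.43 CPM in treated mice, against 1.45, 0.872 and 0 CPM in control mice, and the Treg and Tconv values overlapped too. No tested comparison called Bex2 (edgeR adjusted p = 0.95 for treatment in Tconv, 0.72 in Treg cells, 0.6 for Treg against Tconv in control and 0.99 in treated mice). The best expressed family members stood higher than Bex2: Bex3 stood at 43.8 CPM in treated and 70.7 CPM in control TFH cells (edgeR adjusted p = 0.054) and Tceal9 at 53.8 CPM in treated and 48.6 CPM in control TFH cells (edgeR adjusted p = 0.6). Of the 7 tested family members 2 rose in TFH cells and none changed in TFR, Treg or Tconv cells, while 7 of 12 were at 0 in control TFH, against 2 in treated TFH libraries.

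**Figure D2:**
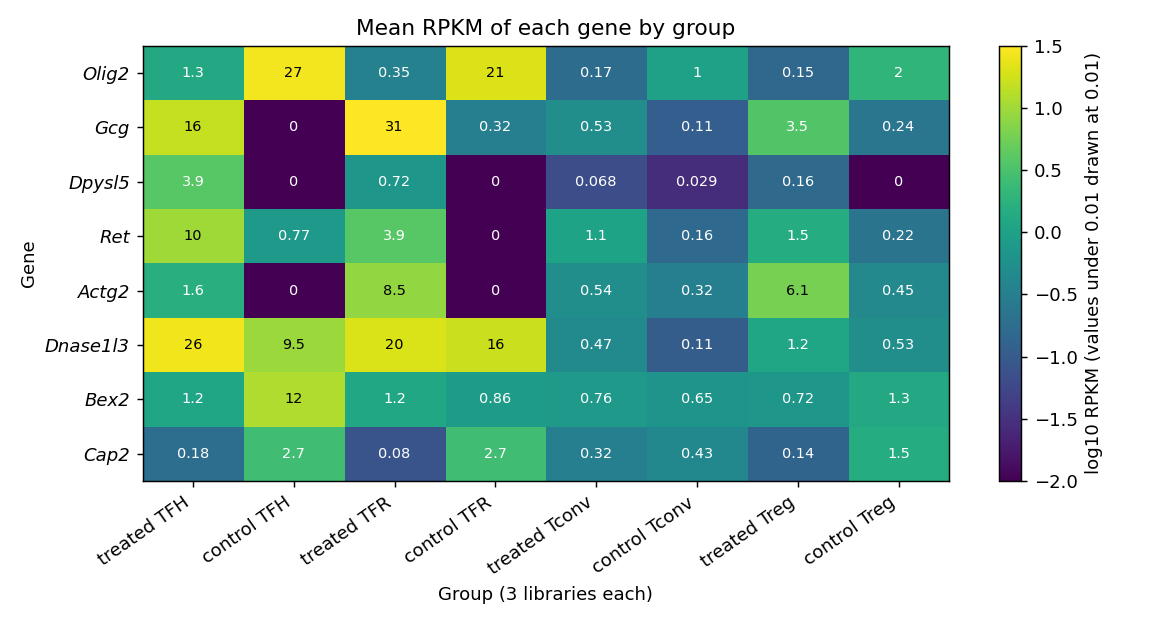
Mean RPKM, CPM per kilobase of exon, of each gene (rows) in each group (columns, 3 libraries each), with the value printed in each cell and colour on a log10 scale. Per length, Gcg reached 30.8 RPKM in treated TFR, Olig2 27.2 RPKM in control TFH and Dnase1l3 26.4 RPKM in treated TFH libraries, whereas Dpysl5 did not exceed 3.85 RPKM in any group mean.

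Levels can be compared between genes only per length of exon. In treated TFH cells the order in mean RPKM was Dnase1l3 (26.4 ± 3.30), Gcg (15.5 ± 1.33), Ret (10.1 ± 2.09), Dpysl5 (3.85 ± 0.200), Actg2 (1.62 ± 1.16), Olig2 (1.31 ± 0.201), Bex2 (1.16 ± 0.348) and Cap2 (0.182 ± 0.111; SD, n = 3 each). Ret, which led Dpysl5 and Gcg in CPM, thus came after Gcg because its exons span 6763 bases, against 1494 bases for Gcg. In control TFH cells Olig2 (27.2 ± 14.7) came first and Bex2 (12.04 ± 13.66) had the next highest mean, with an SD above that mean. The Bex2 place rested on control TFH 2, at 27.81 RPKM, the other libraries being at 3.85 and 4.45 RPKM, where Dnase1l3 was at 3.17 and 7.86 RPKM. In treated TFR cells Gcg (30.8 ± 2.23) and Dnase1l3 (19.9 ± 1.67) led, against Olig2 (20.9 ± 4.55) and Dnase1l3 (16.4 ± 2.31) in control TFR cells. In GENCODE M21 none of the 8 genes shared exon bases with another annotated gene. The annotation behind the deposited counts is not given, and reads shared with genes of similar sequence were not tested.

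The shifts in follicular cells are set here beside those of all genes, as a description. In TFH cells 8 of the 8 genes did not overlap between treated and control libraries, against 35.3% of all genes, and in TFR cells 6 of 8, against 43.3%; both counts come from contrasts that chose the genes. The median log2 fold change of the 8 was 2.56 in TFH cells, beside 0.42 over all genes. This median and the shares that follow come from the same contrasts, so their size follows from the choice and nothing is read from them. Some genes had no read in the control group and a mean of at least 10 CPM in the treated group. Gcg and Dpysl5 were among 104 such genes (0.554%) in TFH cells, and Ret and Actg2 among 43 (0.229%) in TFR cells. Among tested genes 21.9% lacked any read in control TFH libraries and 21.6% in control TFR libraries, so a zero there is common at this depth.

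Between subsets the genes took different orders, described here because subset differences entered the choice. Of treated mice, TFR and TFH libraries did not overlap for 6 of 8 genes, against 41.9% of all genes. Gcg was 1.99-fold and Actg2 5.26-fold higher in TFR cells, and Olig2 was 3.78-fold, Dpysl5 5.39-fold, Ret 2.59-fold and Dnase1l3 1.32-fold lower. In control mice TFR and TFH libraries did not overlap for Bex2 alone, against 10.5% of all genes. TFH and Tconv libraries did not overlap for 5 of 8 genes in treated mice, against 54.9% of all genes, all higher in TFH cells, from 7.57-fold for Olig2 to 56.6-fold for Dpysl5. In control mice it was 4 of 8, against 35% of all genes, with Olig2, Dnase1l3 and Bex2 higher and Dpysl5 lower in TFH cells, where Dpysl5 had no read. TFR and Treg libraries did not overlap for 6 of 8 genes in treated mice, against 46.3% of all genes, all higher in TFR cells, from 1.40-fold for Actg2 to 16.7-fold for Dnase1l3. In control mice it was 4 of 8, against 23.6% of all genes, with Olig2 and Dnase1l3 higher and Ret and Actg2 lower in TFR cells, where the last pair had no read. The treated and control comparisons of a subset share no library, but each group served in more than 1 comparison.

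Thinning all libraries to the 2.54 M counts of the smallest showed what remained at equal depth. Treated TFH libraries kept 46 to 68 Gcg reads, 55 to 95 Dpysl5 reads and 137 to 209 Ret reads, against 0, 0 and 0 to 40 in control TFH libraries. Olig2 kept 6 to 14 reads in treated TFH libraries, against 69 to 271 in control TFH libraries, and 0 to 3 in treated TFR, against 101 to 170 in control TFR libraries. Actg2 kept 28 to 51 reads in treated TFR libraries, against 0 in control TFR libraries, but only 0 to 6 in treated TFH libraries, against 0, so that those groups touched. Cap2 in TFH cells touched as well, at 0 to 3 reads in treated and 3 to 39 in control libraries.

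**Figure D3:**
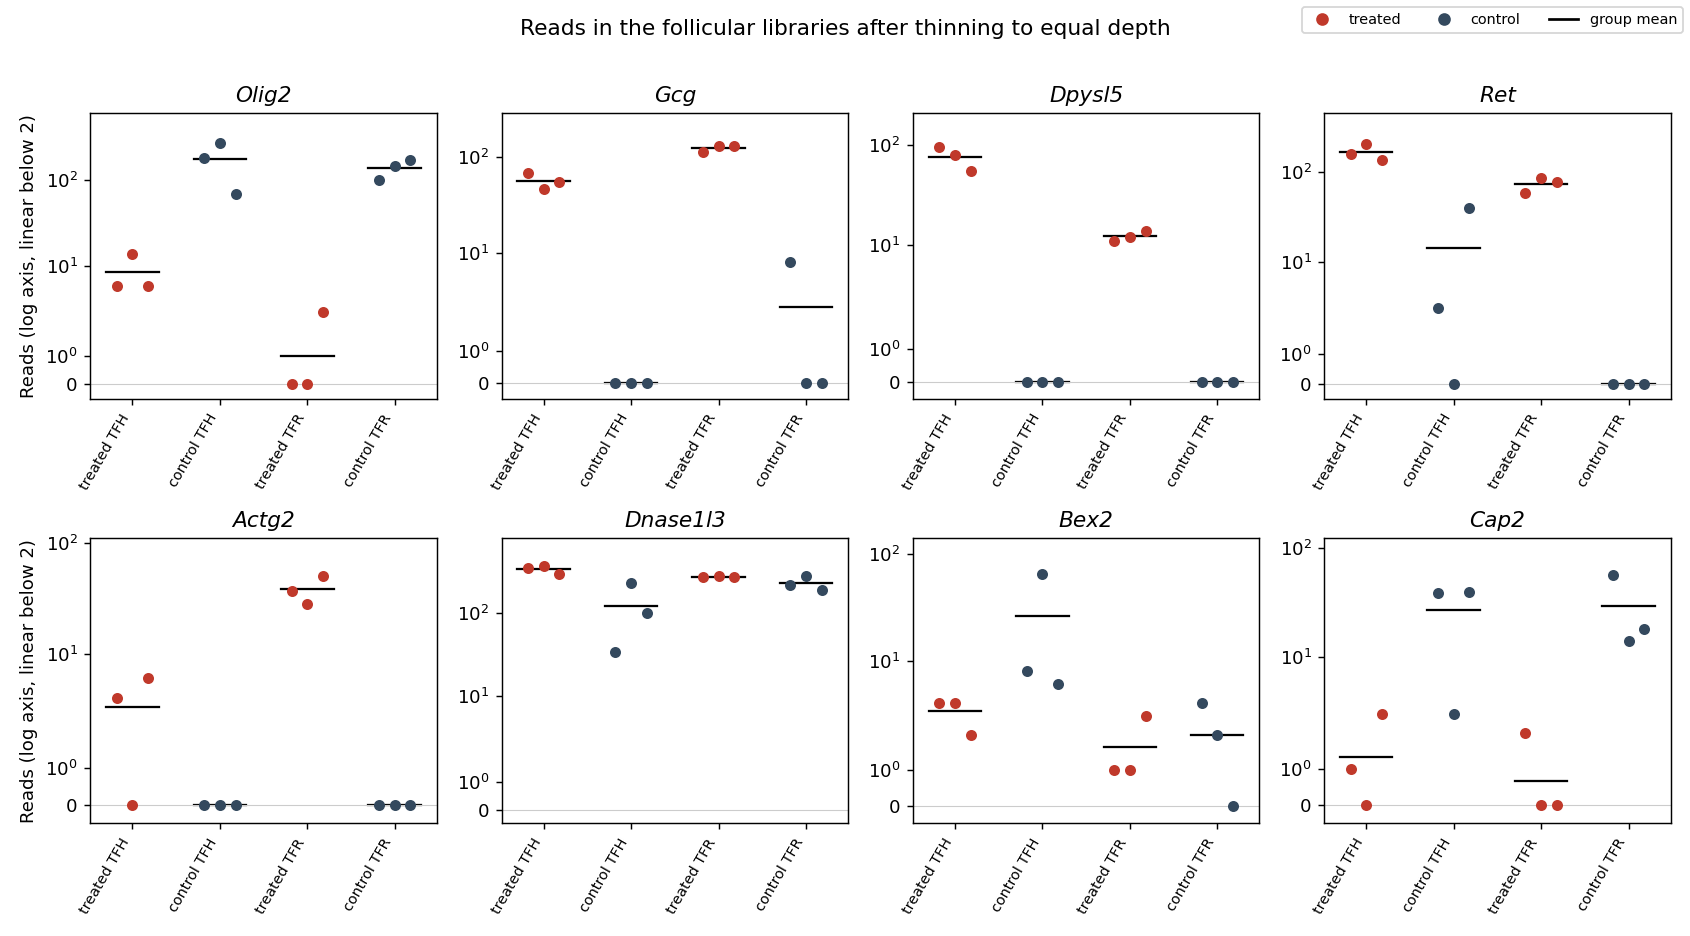
Reads of each gene (log axis, linear below 2) in the 12 TFH and TFR libraries after each library was thinned to 2.54 M counts, treated groups in red left of control groups in dark blue, with a bar at the group mean. Gcg, Dpysl5 and Ret in treated and Olig2 in control libraries stay apart from the other group at equal depth, whereas Actg2 and Cap2 in TFH cells touch at 0 and 3 reads.

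In the tested comparisons the genes were called more often in Treg than in Tconv cells. For treatment in Treg cells 5 of 8 passed, 3 higher (Gcg, Dpysl5 and Actg2) and 2 lower (Olig2 and Cap2), against 8.73% of all genes. In Tconv cells 2 of 8 passed, Dnase1l3 higher and Olig2 lower, against 9.94% of all genes. The medians were 1.94 in Treg and 0.97 in Tconv cells, beside 0.09 and 0.02 over all genes. A call in one subset and not in the other does not show that the responses differ. That difference, tested in the main fit only, passed for Dpysl5 alone. Treg against Tconv cells gave 2 of 8 in treated mice (Gcg and Actg2 higher, against 11.9% of all genes). In control mice the comparison gave 2 of 8 (Dnase1l3 higher and Dpysl5 lower, against 9.3%). The Dpysl5 call set no read in control Treg against 18 reads in control Tconv libraries. It passed the low-count filter only through treated groups, so nothing is read from that call. Gcg in treated mice stood at 5.25 ± 0.603 CPM in Treg and 0.797 ± 0.199 CPM in Tconv libraries (SD, n = 3 each, 2.71 ± 0.86, edgeR adjusted p = 0.046), and no leave-one-out fit kept that call (edgeR adjusted p between 0.084 and 0.18). These Treg and Tconv libraries also served as the counterpart of TFR and TFH cells when the genes were chosen. The subset tests are thus not free of the choice, and the treatment tests share libraries with it. Without the 4 kidney libraries the count under treatment was 5 in Treg and 2 in Tconv cells, and without treated Treg 3 as well it was 4 in Treg, where Cap2 was lost, and 2 in Tconv cells.

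**Figure D4:**
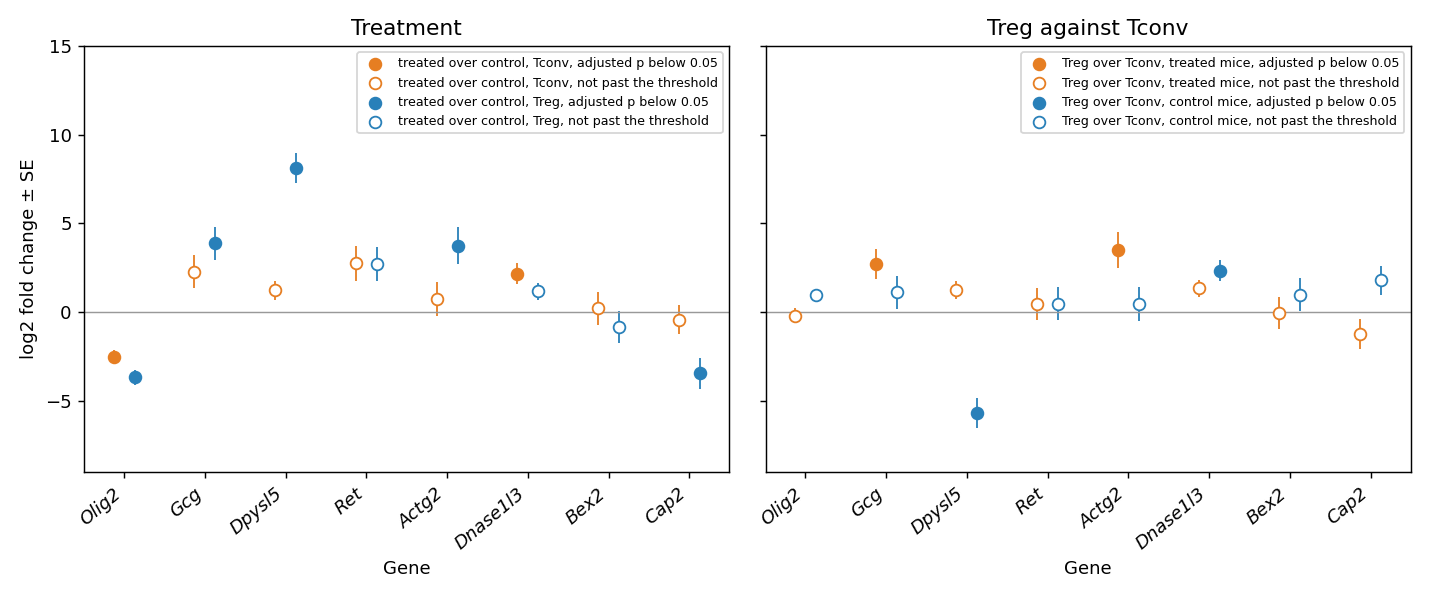
Log2 fold changes from edgeR, with standard errors derived from the F statistic. Left, treatment (treated over control, Tconv in orange and Treg in blue). Right, Treg over Tconv (treated mice in orange and control mice in blue). Filled points passed an adjusted p of 0.05. Olig2 lies below 0 in both subsets under treatment, and the Dpysl5 points at 8.13 and -5.68 rest on groups with no read.

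Genes whose levels were most like each member over the 24 libraries are given as a description, since all of them share the split in depth and treatment. The closest to Gcg was Sema4d (Pearson r = 0.925 of log2 CPM), followed by Klrg2 (0.922) and Kcnip3 (0.913), and Kcnip3, a calcium-binding repressor of neurons, was also the closest to Dpysl5 (0.966), ahead of Itgad (0.957) and Cldnd2 (0.956). Kcnip3 stood at 9.73 CPM in treated TFH and 5.89 CPM in treated TFR libraries, against 0 in both control groups. The closest to Ret was Nkg7 (0.920), a granule protein of cytotoxic cells, followed by Il22 (0.915) and Itga7 (0.891). Nkg7 stood at 79.7 CPM in treated and 0.968 CPM in control TFH libraries, and at 57.6 CPM in treated TFR and 0 in control TFR libraries. The closest to Actg2 were Hist1h2ap (0.957), Wnt10a (0.932) and Hapln1 (0.930), and those to Olig2 were the kinase Sik3 (0.948), Hmces (0.914) and the deacetylase Hdac4 (0.913), which were expressed in all groups. For Dnase1l3 they were Cxcr5 (0.914), the chemokine receptor used to sort the follicular cells, Mapre2 (0.897) and Tox2 (0.895), a follicular T cell transcription factor. Cxcr5 had 261 CPM in treated and 121 CPM in control TFH cells, and 136 CPM in treated and 53.7 CPM in control TFR cells. Yju2, Zfp213 and Irgq (0.869, 0.828 and 0.828) were closest to Bex2, and Ralgapb, Taz and Stk25 (0.895, 0.861 and 0.858) to Cap2. Between members r was highest for Gcg with Dpysl5 (0.89) and with Actg2 (0.86), and lowest for Olig2 with Actg2 (-0.82).

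Markers of the sorted cells and of other cells were checked as whole lists. CD4 T cell markers were present in every group, with none of 8 at 0 and sums of 3304 to 3737 CPM in treated and 2613 to 2701 CPM in control TFH libraries, and 3 of the 8 (median log2 fold change 0.29) rose in TFH, 7 in TFR, 3 in Treg and 8 in Tconv cells. The 12 markers of TFH and TFR cells summed to 2078 to 2416 CPM in treated and 2238 to 2474 CPM in control TFH libraries, and to 486 to 524 CPM in treated and 440 to 472 CPM in control Tconv libraries; with treatment 2 rose and 4 fell in TFH, 2 rose and 5 fell in TFR, 2 rose and 4 fell in Treg and 6 rose and 2 fell in Tconv cells. CD8 and NK cell markers, like Gcg, Dpysl5 and Ret, stood higher in treated libraries of all 4 subsets. Of 7 tested, 6 rose in TFH, 5 in TFR, 2 in Treg and 2 in Tconv cells. Their sums were 568 to 749 CPM in treated and 43.5 to 50.2 CPM in control TFH libraries, Cd8a and Ncr1 being at 0 in both. In treated TFR libraries the sum was lower (355 to 431 CPM), whereas Gcg was higher in TFR than in TFH cells. Eomes made up most of the sum in TFH cells, at 538 CPM in treated and 41.3 CPM in control libraries (3.71, edgeR adjusted p = 8.3e-09). B cell markers summed to more in treated libraries, at 1968 to 2256 CPM in treated and 627 to 731 CPM in control TFH libraries and at 1903 to 2162 CPM in treated and 434 to 531 CPM in control TFR libraries, with Ighm as the main part (1563 CPM in treated and 287 CPM in control TFH cells). Of 20 tested, 3 rose and 2 fell in TFH, 5 rose in TFR, 5 rose and 1 fell in Treg and 2 rose and 1 fell in Tconv cells. The median log2 fold change of the B cell list was -0.32 in TFH cells, beside 0.42 over all genes, and 1.89 in TFR cells, beside 0.40. The part of such cells in the values of the 8 genes was not tested.

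Few kidney markers passed the test. Podocyte markers had 1 of 12 higher in TFH and 1 in TFR cells, none in Treg cells and 3 lower in Tconv cells; proximal tubule markers had 1 of 11 higher in TFH cells and none elsewhere, and distal nephron markers 1 of 12 higher in TFH cells and none elsewhere. Their levels followed the libraries named above: proximal tubule sums ran from 3.63 to 691 CPM in treated TFH and from 3.80 to 619 CPM in control Tconv libraries, and distal nephron sums from 4.56 to 78.8 CPM in treated TFH and from 5.93 to 74.7 CPM in control Tconv libraries. Without the 4 kidney libraries, which leaves 2 treated against 3 control libraries, the groups did not overlap for 8 of 8 genes in TFH cells, beside 39.4% of all genes, and for 7 of 8 in TFR cells, beside 47.2%. Dnase1l3 joined the TFR count because treated TFR 1 was left out, and nothing is read from these counts, since the genes were chosen on these comparisons. Erythroid and platelet markers were low and, like Olig2, lower in treated libraries of all 4 subsets without overlap. Their sums were 6.71 to 13.3 CPM in treated and 18.9 to 36.8 CPM in control TFH libraries, and 3.51 to 4.22 CPM in treated and 11.8 to 34.7 CPM in control TFR libraries. They were 2.97 to 3.53 CPM in treated and 4.33 to 12.7 CPM in control Treg libraries, and 4.41 to 5.15 CPM in treated and 8.31 to 11 CPM in control Tconv libraries. Of the tested genes 2 of 7 fell in TFH cells, 1 in TFR cells and none in Treg or Tconv cells, and the part of such cells in the Olig2 values was not tested.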

How the data were processed

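Total RNA-seq covered 24 libraries of sorted CD4 T cells, 3 in each of 8 groups. Per the labels' protocols, RNA was extracted with a column kit and DNase and made into libraries with the CORALL kit after removal of ribosomal RNA. The authors deposited raw counts of reads per gene. The submitters' processing notes name STAR, featureCounts and mm10, with no version, annotation or strand setting given in the sources used here, so reads from the antisense strand could not be set apart. Of 39056 gene IDs, 38872 matched GENCODE M21 and 184 did not, and Olig2 and Cap2 matched without the version suffix. No column of per-sample values was left unused (0).

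Counts were fitted with edgeR 4.0.16 (R 4.3.3, limma 3.58.1): TMM scaling, filterByExpr by group (18789 genes), 1 model of 8 group means over 24 libraries, two-sided quasi-likelihood tests and Benjamini-Hochberg adjustment at 0.05. CPM use the TMM-scaled library size, and RPKM divide CPM by exon length in kilobases. Standard errors of log2 fold changes were derived as the absolute log2 fold change divided by the square root of the F statistic. Where a group had no read, they depend on the prior count as the fold change does and do not measure its precision. Total counts ran from 2.54 to 53.8 M (mega) a library, so that 1 CPM was 2.59 reads in the smallest. Libraries of a group all differed by more than counting noise, the lowest chi-square divided by its degrees of freedom being 4.70. Kidney libraries were those with a podocyte marker sum over 10 CPM and at least 10 times the lowest of their group. The scripts were tested on simulated data.

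The 8 genes and all gene lists were chosen with earlier results of these data known. From each list, genes were named that reached a mean of 10 CPM in a group, at most 4 by highest mean, and markers at 0 were named after their values were seen. Likeness was Pearson's r of log2 CPM (prior count 2) over 24 libraries among 12793 genes. Alternatives were other scalings, no filter, DESeq2 1.42.0, limma voom, the compared libraries alone, a replicate block, leaving out libraries and thinning. Promoters came from RefSeq (GRCm38.p6). Ret, Actg2 and Dnase1l3 had no entry matched. Results for some listed or neighbouring genes are not reported here.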

Additional observations from a re-analysis of the deposited data

Results flagged for a closer look

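The response of Dpysl5 to treatment differed between Treg and Tconv cells when tested directly, by 6.92 ± 1.01 on the log2 scale (edgeR quasi-likelihood test, adjusted p = 0.0012), with 180 reads in treated and 0 in control Treg libraries, and 55 reads in treated and 18 in control Tconv libraries. The size depends on the prior count because control Treg libraries had no read, and the difference was tested in the main fit only.

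For 3 genes the order of a follicular subset and its counterpart was opposite in treated and in control mice without overlap, and this difference was not tested. Dpysl5 averaged 28.42 CPM in TFH and 0.502 CPM in Tconv libraries of treated mice, against 0 in TFH and 0.214 CPM in Tconv libraries of control mice. Ret averaged 26.5 CPM in TFR and 9.84 CPM in Treg libraries of treated mice, against 0 in TFR and 1.49 CPM in Treg libraries of control mice. Actg2 averaged 13.22 CPM in TFR and 9.44 CPM in Treg libraries of treated mice, against 0 in TFR and 0.700 CPM in Treg libraries of control mice. A count of 0 over a control group allows up to 0.13 CPM in TFH and 0.121 CPM in TFR cells. In single libraries the limit was 0.522, 1.16 and 0.204 CPM in control TFH 1, 2 and 3. Dpysl5 in control Tconv libraries stood at 0.278, 0.143 and 0.222 CPM, so its order in control mice was not resolved library by library. Ret in control Treg 3 rested on 2 reads (0.0827 CPM), below the limit in TFR cells, so its lack of overlap was not resolved either.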

How the results depend on the processing

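Of the 538 single-gene values of tested comparisons under an alternative, 453 kept direction and side of the threshold, 38 lost and 30 gained the call, and 17 changed sign. Treatment in Treg cells gave 5 genes, and 3 to 4 in leave-one-out fits. Treatment in Tconv cells gave 2, but 4 with DESeq2, 5 with voom, 0 when thinned and 1 to 2 in leave-one-out fits. Treg against Tconv gave 2 in treated mice, but 4 with DESeq2, 5 with voom, 6 with only the compared libraries, 1 without the kidney libraries and treated Treg 3 (chosen after seeing the data) and 0 in every leave-one-out fit. In control mice it gave 2, but 4 with voom, 1 with only the compared libraries, 0 when thinned and 1 to 2 in leave-one-out fits. Olig2 and Dpysl5 in Treg cells were called under all 17 settings (highest adjusted p 0.012 and 0.026). The sign changes were all in uncalled values. Bex2 for treatment in Tconv cells was at -0.28 with voom and -0.31 to 0.45 in leave-one-out fits, and Cap2 at 0.49 when thinned. For Treg against Tconv in control mice Ret was at -0.93 with voom, -0.33 when thinned and -0.64 to 1.07 in leave-one-out fits, and Actg2 at -0.07 with voom, -0.28 when thinned and -0.12 to 1.12 in leave-one-out fits. In treated mice Olig2 was at 0.32 when thinned, and Bex2 at 0.06 with the restricted scaling, 0.16 with voom, 0.01 without the kidney libraries and treated Treg 3, and -0.30 to 0.46 in leave-one-out fits. Bex2 was not tested when thinned. The cause of these changes was not tested.

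Counts over all genes moved more. For treatment in Tconv cells 1868 genes passed, against 3165 with DESeq2, 10500 with voom, 5629 with only the compared libraries and 626 without the kidney libraries. In Treg cells it was 1640, against 2725, 6500 and 6190 with the first 3 of these. For Treg against Tconv in control mice it was 1747, against 3080, 7910 and 3308, and 892 without the kidney libraries. In treated mice it was 2238, against 3496, 10206 and 9503. Another scaling moved the split of higher and lower calls: 1294 and 574 became 1062 and 746 in Tconv cells (relative log expression), and for Treg against Tconv in treated mice 1197 and 1041 became 1547 and 707 (restricted scaling, median of all genes 0.15 in place of 0.01). Gene lists were counted with the main scaling only and with all libraries.

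The replicate numbers were not treated as pairs, since same-numbered libraries of the compared groups correlated by -0.71 to 0.59 and not above 0.1 in every pair. With the replicate block, Treg against Tconv in treated mice gave 1 gene, Actg2, in place of 2, and the other counts of the 8 genes stayed at 2, 5 and 2. The depth of control TFH and TFR libraries limits every 0 there to under 0.13 and 0.121 CPM over the group.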
